A study of Mus musculus with 29 samples.

Results

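The sites described here are stretches of the mouse genome near the starts of protein-coding genes where between 1 and 9 of 24 expressed transcription factor constructs gave ChIP-seq peaks. They were chosen by position and by the number of constructs: the peaks of duplicate lists were merged per construct, touching peaks of all 24 constructs were merged into sites, and a site was kept when its midpoint lay within 1 kb of a protein-coding transcript start. Of 168506 merged sites, 17607 lay this close to a start, and 17581 of them, 10.4% of all sites, held peaks of 1 to 9 constructs. The other 26 held peaks of 10 or more constructs. Below, "promoter sites" means the 17581, and "other sites" means the 150199 sites of 1 to 9 constructs farther from a start. The promoter sites reached 13136 of 21853 protein-coding genes, which is 60.1% of them.

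The constructs were expressed in NIH-3T3 cells, a fibroblast line derived from mouse embryos, from lentiviral transgenes that carry 3 HA tags at the C-terminus and were induced overnight with 500 ng/ml doxycycline. Chromatin was fixed with 1% formaldehyde, precipitated with an antibody against the HA tag and sequenced. The wild-type factors were BHLHB8-HA, BRACHYURY-HA, CDX2-HA, DLX1-HA, DLX6-HA, DUXBL-HA, EBF1-HA, FOXA1-HA, HLF-HA, MAX-HA, NANOG-HA, OCT4-HA, PRR3-HA, RHOX11-HA, SIX6-HA, SOX15-HA, SOX2-HA, TEAD1-HA, THAP4-HA, TOX3-HA and ZFP319-HA, 21 in all. The other 3 constructs were FOXA1_RR-HA and FOXA1_SW-HA, mutants of FOXA1 with weaker electrostatic contact to DNA, and SOX2-YPET OCT4-HA, in which OCT4-HA was co-expressed with a SOX2 that carries the yellow fluorescent protein YPet. All of these factors were overexpressed in fibroblasts, where many of them have no natural role, and each transgene was driven by doxycycline in cells carrying the rtTA3G activator. The 28 peak lists held 304922 peaks, between 52 and 61991 per list, and gave positions only, so the depth of each library is unknown. There were 2 lists each for SOX2-HA, OCT4-HA, FOXA1-HA and BHLHB8-HA and 1 for each of the other 20 constructs, so that no error between libraries can be given for them.

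A promoter is the DNA around a transcription start, where general factors and RNA polymerase assemble and where sequence-specific factors can bind. Many mammalian promoters lie in CpG islands, stretches rich in G and C that keep unmethylated CpG pairs and an open chromatin state in most cell types, and these include the promoters of genes that every cell uses. Promoters poor in CpG more often belong to genes of a single tissue, such as the olfactory receptors. Promoters of housekeeping genes often carry short sequences read by ETS factors, YY1, NRF1, NFY, ZNF143 and the SP/KLF zinc-finger family.

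The following sequences come from the RefSeq sequence of GRCm38.p6 (mm10). Each runs 5′ to 3′ on the strand given, and capitals mark the sequence searched for. Each was searched on both strands in the central 200 bp of the construct's own peak, and a match is a description and not evidence of contact. This set is shown because it gives the sequence that each factor is known to read, at a promoter site that no other construct held: the E-box CAGCTG for BHLHB8-HA, the EBF sequence TCCCNNGGG, the forkhead sequence TATTTAC and the double-homeodomain sequence AATCNAATC. They lie upstream of Dzip1, which encodes a zinc-finger protein of the base of cilia, in an intron of Tagln2, which encodes the actin-binding protein transgelin-2, upstream of Dcn, which encodes the matrix proteoglycan decorin, and upstream of Trim69.
BHLHB8-HA at Dzip1, chr14:118925509-118925564, plus strand: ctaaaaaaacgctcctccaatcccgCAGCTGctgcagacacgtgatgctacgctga
EBF1-HA at Tagln2, chr1:172501517-172501575, minus strand: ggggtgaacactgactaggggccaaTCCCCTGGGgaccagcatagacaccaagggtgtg
FOXA1-HA at Dcn, chr10:97478848-97478904, plus strand: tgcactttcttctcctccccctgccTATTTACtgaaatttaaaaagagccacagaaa
DUXBL-HA at Trim69, chr2:122160602-122160660, plus strand: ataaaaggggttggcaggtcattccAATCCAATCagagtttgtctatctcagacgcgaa

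The next set is shown because it pairs a factor with a gene family that it is known to regulate: the caudal sequence TTTATGG of CDX2-HA at Hox genes, and the D-box TTATGTAA of HLF-HA at circadian genes. CDX2 patterns the body axis through the Hox clusters, and HLF is a bZIP factor of the clock output. Ciart encodes a repressor in the clock, and Nr1d2 encodes the nuclear receptor REV-ERB beta.
CDX2-HA at Hoxd4, chr2:74721908-74721964, plus strand: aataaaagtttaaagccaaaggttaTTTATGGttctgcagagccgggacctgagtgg
CDX2-HA at Hoxa4, chr6:52190861-52190917, minus strand: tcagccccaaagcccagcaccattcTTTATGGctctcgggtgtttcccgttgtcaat
HLF-HA at Ciart, chr3:95882870-95882927, minus strand: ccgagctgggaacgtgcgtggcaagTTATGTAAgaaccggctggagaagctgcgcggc
HLF-HA at Nr1d2, chr14:18238578-18238635, plus strand: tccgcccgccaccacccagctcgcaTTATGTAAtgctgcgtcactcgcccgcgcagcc

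The last set is shown because these are sequences of general promoter factors inside peaks of constructs with no sequence of their own on the list, or whose own sequence was rare there: the ZNF143 sequence TACAATTCC, found in 0.517% of all promoter windows, the ETS sequence CCGGAAG, found in 11.1%, the YY1 sequence AAGATGGC, found in 3.02%, and the SP/KLF sequence GGGCGG, found in 44.8%. A promoter window runs from 250 bp before to 50 bp after 1 start per gene, the one that the largest number of its basic coding transcripts use. A promoter site can lie near another start of the same gene. Uqcr10 encodes a subunit of respiratory complex III, and it starts beside Zmat5. Hcn4 encodes a pacemaker channel, and Gnai2 encodes an inhibitory G-protein subunit.
RHOX11-HA between Uqcr10 and Zmat5, chr11:4704367-4704425, minus strand: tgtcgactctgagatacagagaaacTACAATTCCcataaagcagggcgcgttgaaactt
RHOX11-HA at Zfp446, chr7:12977757-12977813, minus strand: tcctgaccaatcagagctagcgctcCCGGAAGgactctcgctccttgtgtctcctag
THAP4-HA between Sh3bp5l and Zfp672, chr11:58330562-58330619, minus strand: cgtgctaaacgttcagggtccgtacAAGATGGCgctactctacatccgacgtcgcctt
TEAD1-HA at Hcn4, chr9:58823057-58823112, plus strand: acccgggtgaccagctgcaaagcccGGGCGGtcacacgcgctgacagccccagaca
TOX3-HA at Gnai2, chr9:107635459-107635514, plus strand: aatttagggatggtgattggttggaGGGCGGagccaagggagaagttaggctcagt

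The SOX2-YPET OCT4-HA list met the 2 lists of BHLHB8-HA unequally. Of its 241 promoter sites, 63 (26.1%) were also in BHLHB8-HA replicate 1 and 136 (56.4%) in BHLHB8-HA replicate 2, with 74 in replicate 2 alone and 1 in replicate 1 alone. Over all promoter sites these lists held 42.8% and 57.3%, so that the overlap was near this share for replicate 2 and below it for replicate 1. At its 4771 other sites the shares were 3.40% and 29.6%, against 24.8% and 33.8% of all other sites. What sets the co-expression list apart from replicate 1 was not tested, and each test is given with and without that list. In the 4 duplicated constructs, both lists held 51.5% of the BHLHB8-HA promoter sites, 12.5% of those of FOXA1-HA, 13.9% of those of SOX2-HA and 0 of the 7 of OCT4-HA. At other sites the shares were 25%, 11.4%, 19.9% and 3.57%, in the same order. Promoter sites were thus found again more often in BHLHB8-HA and less often in SOX2-HA, and the mean difference of 4.50 ± 14.9 percentage points (SD, n = 4) did not differ from 0 by an exact permutation test of signs (two-sided p = 0.875, where 0.13 is the smallest p that 4 values allow). It was 4.53 points without the co-expression list. It rested on BHLHB8-HA and was -2.89 points over the other 3.

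BHLHB8-HA and TEAD1-HA supplied most of the promoter sites. BHLHB8, also called MIST1, is a basic helix-loop-helix factor of secretory cells, and TEAD1 is the DNA-binding partner of the Hippo pathway's co-activators. BHLHB8-HA peaks lay in 11626 promoter sites (66.1% of them) at 46.7% of all protein-coding genes, and TEAD1-HA peaks in 6733 (38.3%) at 32.0% of genes. At least 1 of them was present at 14588 (83.0%) of the promoter sites, which left 2993 without either. The homeodomain factor DLX1-HA followed with 2729 sites at 13.1% of genes, RHOX11-HA, a homeodomain factor of the reproductive tract, with 2024 at 11%, and DLX6-HA with 1655 at 8.02%. The zinc-finger protein ZFP319-HA held 1391 at 6.53% of genes, EBF1-HA, a factor of B cells and fat cells, 1278 at 6.18%, SOX2-HA 1100 at 5.02%, and the double-homeodomain factor DUXBL-HA 857 at 4.25%. Below these, CDX2-HA held 550 (2.52% of genes), SIX6-HA 507 (2.53%), TOX3-HA 475 (2.29%), MAX-HA 455 (2.23%), FOXA1-HA 343 (1.65%), SOX2-YPET OCT4-HA 241 (1.15%), HLF-HA 229 (1.14%) and SOX15-HA 156 (0.741%). These percentages of genes are the background for the gene classes below. Where a construct had 2 lists the counts rest mostly on the longer one. SOX2-HA had 1088 promoter sites in replicate 1 and 165 in replicate 2, which is fewer than DUXBL-HA had, FOXA1-HA had 324 and 62, and BHLHB8-HA had 7528 and 10081.

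The order changed when promoter sites were taken as a share of each construct's own sites. TEAD1-HA had 45.1% of its 14945 sites near starts (95% exact interval 44.3 to 45.9), RHOX11-HA 44.7% of 4527 (43.3 to 46.2) and TOX3-HA 37.5% of 1266 (34.8 to 40.3). EBF1-HA (16.9%), BHLHB8-HA (14.1%), DLX1-HA (14%) and MAX-HA (11.9%) came next. SOX2-HA had 4.39%, DUXBL-HA 3.53%, SOX15-HA 3.16% and CDX2-HA 2.18% of 25191 sites. TEAD1-HA and RHOX11-HA did not differ beyond their intervals. As shares of all own sites, both lay above every other construct with at least 20 promoter sites. All own sites include those with more constructs than the rule allows, which cannot be promoter sites. TOX3-HA had 475 promoter and 546 other sites among its 1266. RHOX11-HA had 2024 and 2214 among 4527, and TEAD1-HA had 6733 and 8152 among 14945. That TOX3-HA lay below both thus depends on counting the sites that the rule leaves out. The intervals cover counting error over sites only.

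**Figure D1:**
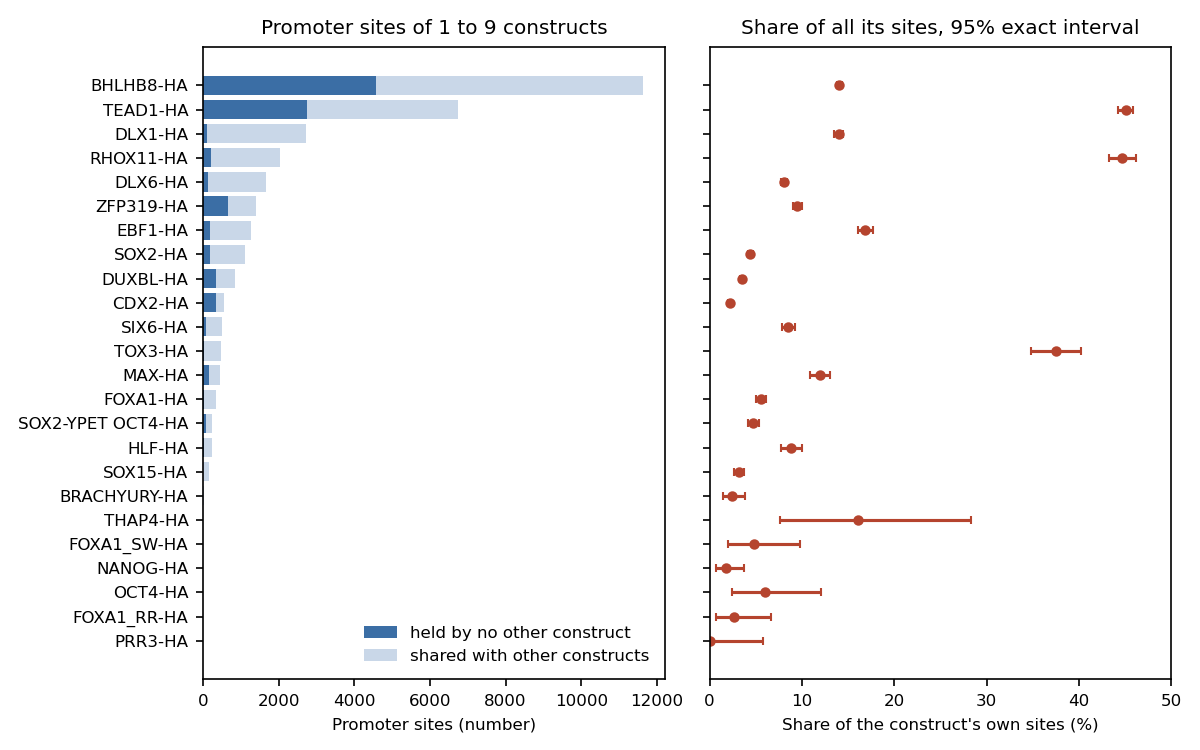
The left panel plots the number of promoter sites of each of the 24 constructs, with the dark part held by no other construct. The right panel plots them as a percentage of all the construct's own sites, including those the rule leaves out, with 95% exact intervals. BHLHB8-HA had the most, 11626, while TEAD1-HA at 45.1% and RHOX11-HA at 44.7% had the highest shares.

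Constructs also differed in how far they stood alone. CDX2-HA held 64.7% of its promoter sites with no other construct, ZFP319-HA 47.9%, TEAD1-HA 40.8% and BHLHB8-HA 39.4%, whereas DLX1-HA held 3.81%, SOX15-HA 3.85% and TOX3-HA 5.05% alone. The promoter sites fell into 984 combinations of constructs. The most frequent were BHLHB8-HA alone (4584 sites, median GC content 56.5%), TEAD1-HA alone (2745, 73.5%), the pair of them (1655, 72.5%), ZFP319-HA alone (666, 48%) and BHLHB8-HA with DLX1-HA (590, 55.5%). CDX2-HA alone had 356 sites with a median GC content of 36.25%.

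Some pairs of constructs shared a large part of the sites of the smaller one. SOX15-HA shared 132 sites with SOX2-HA, which was 84.6% of the sites of SOX15-HA and 12% of those of SOX2-HA, with a log2 odds ratio of 6.52. DLX6-HA shared 559 with SOX2-HA (33.8% and 50.8%, log2 odds ratio 3.86). FOXA1-HA and MAX-HA, which have unrelated DNA-binding domains, shared 140 sites, 40.8% of the former and 30.8% of the latter, with a log2 odds ratio of 5.21. BHLHB8-HA, at 66.1% of all promoter sites, was present at 93.0% of the DLX1-HA promoter sites, and these were 21.8% of its own (3.08). TEAD1-HA, at 38.3% of all promoter sites, was present at 67.6% of the TOX3-HA sites, which were 4.77% of its own (1.80). BHLHB8-HA and TEAD1-HA shared 3771 sites, 32.4% and 56% of theirs, with a log2 odds ratio of -1.04. At other sites the log2 odds ratios of these pairs were 5.85, 4.35, 5.47, 1.86, 0.732 and -3.73, in the same order. The sharing by the first 3 pairs was thus not limited to promoter sites. Every site holds at least 1 construct by the rule, so that the ratios of the most frequent constructs are pushed down, and all of these values are descriptions with no test.

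Most promoter sites were held by few constructs. A single construct held 9920 (56.4%), 2 constructs 3839, 3 constructs 2030, 4 constructs 957, 5 constructs 429, 6 constructs 221, 7 constructs 100, 8 constructs 52 and 9 constructs 33. Among other sites, a single construct held 79.0%. The share of sites that lay near a start was 7.71% with 1 construct, 24.9% with 3 and 5.90% with 9. The leading constructs changed along this series. BHLHB8-HA was present at 88.0% of promoter sites with 2 constructs and at all 33 with 9, DLX6-HA and SOX2-HA were also at all 33, and DLX1-HA was at 31. TEAD1-HA was at 58.1% of the promoter sites with 3 constructs. Median GC content was 58% with 1 construct, 65.5% with 2 and with 3, and 57% with 9.

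At the upper limit of the rule lay 33 promoter sites with 9 constructs and 9 with 10, the latter left out. The widest with 9 constructs were at Azin1, which encodes an inhibitor of antizyme in polyamine control (2388 bp, chr15:38517729-38520116, GC content 62.5%), Sec14l1 (2277 bp), the sialyltransferase gene St3gal1 (2196 bp), Gga1, which encodes an adaptor of the Golgi (2161 bp), Sox6 (1850 bp, 44.5%) and Gm14137 (1825 bp). The widest with 10 were at the kinase gene Bmp2k (2162 bp, 85%), the histone gene Hist4h4 (1838 bp), Steap1 (1633 bp), the kinase gene Rock2 (1621 bp, 76.5%), Glt28d2 and Gm37240 (1286 bp) and Klf9 (1235 bp). Widths and GC contents on the 2 sides of the limit overlapped. The site at Steap1 lies between 3 and 11 Mb of chromosome 5, a stretch where peaks of many constructs lay close together. This stretch held 66 promoter sites at 39 of its 42 genes, and 21.2% of them had 5 or more constructs against 4.75% of all promoter sites.

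Counted over separate sites, the gene with the most constructs was Tcf4, which encodes an E-protein partner of basic helix-loop-helix factors. It had 10 promoter sites at its many starts with 14 constructs in all. Ankrd28 had 12 constructs over 3 sites, Arhgap21 11 over 2, Inpp1 11 over 2, the stem-cell receptor gene Lgr6 11 over 4 and the corepressor gene Tle1 10 over 3. In all, 8638 genes had 1 promoter site and 4498 had 2 or more. Most sites, 16036, lay within 1 kb of the starts of a single gene.

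GC content was higher at promoter sites than at other sites in every construct that could be compared. Over the central 200 bp, the median was 61.5% at promoter sites and 45.5% at other sites. The highest medians were those of TEAD1-HA (72.5%, against 44.5% at its other sites), TOX3-HA (70% against 56%) and RHOX11-HA (63.5% against 48%), and the lowest was that of CDX2-HA (39% against 36%). The quartiles at promoter sites, 68% to 76% for TEAD1-HA and 34% to 44.5% for CDX2-HA, did not overlap. BHLHB8-HA (61% against 50%), EBF1-HA (62% against 52%) and DLX1-HA (60.5% against 45.5%) lay between, and SOX2-HA (50.5% against 43.5%), MAX-HA (49.5% against 43.5%) and SOX15-HA (49.25% against 45.5%) lay near the low end. The difference between promoter and other sites was 10.25 ± 5.81 percentage points (mean and SD over n = 17 constructs), above 0 in 17 of 17 and between 3 and 28 points (two-sided permutation test of signs over constructs, p = 4.00e-05, Benjamini-Hochberg adjusted p over the 7 tests made here 9.33e-05). Without the co-expression list it was 10.5 points over 16 constructs, and at sites of a single construct, where no site counts for more than 1 factor, it was 6.39 points (same permutation test, adjusted p = 0.000107). Elsewhere constructs share sites, so that their values are not independent. Sites were sorted by distance from a start, so the test cannot tell a preference of the constructs from the base composition of promoters. Over all genes, the 300 bp promoter windows had a median GC content of 55.7%. The medians of CDX2-HA, SOX15-HA, MAX-HA, SOX2-HA, DUXBL-HA, ZFP319-HA, FOXA1-HA and DLX6-HA lay below this, and those of the other constructs above.

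**Figure D2:**
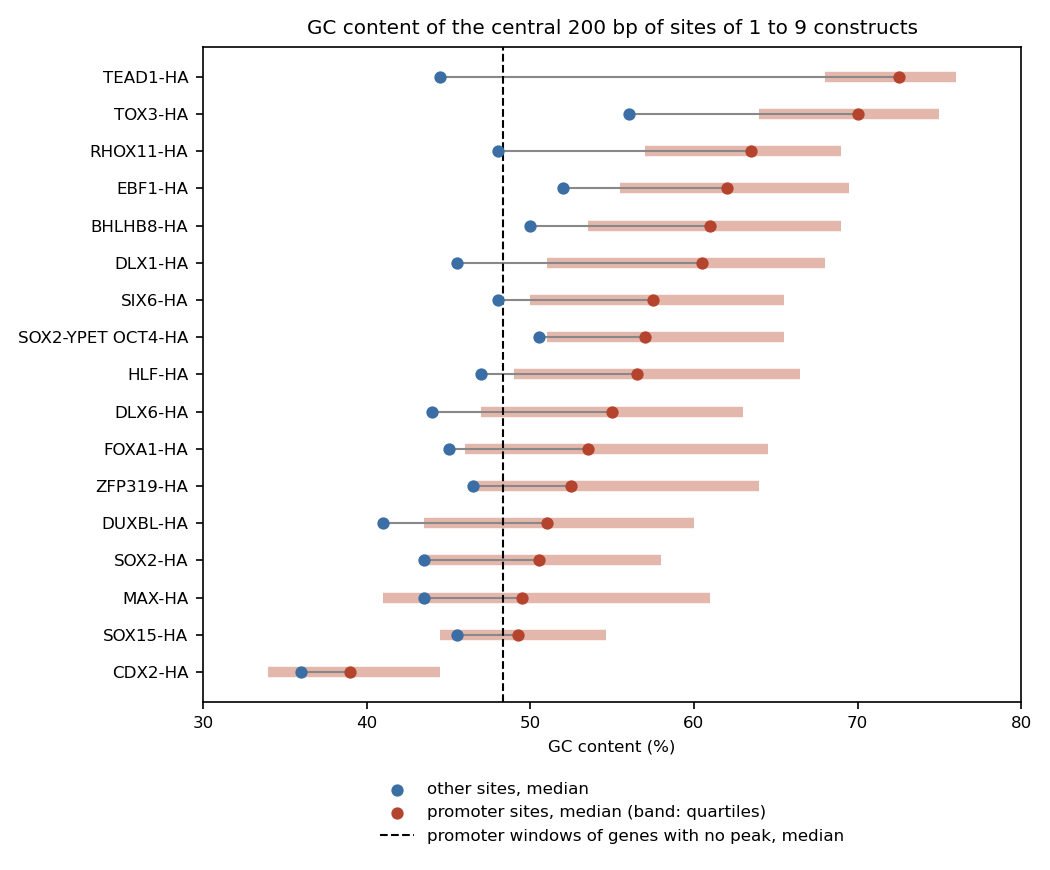
Points give the median GC content in percent of the central 200 bp of sites of 1 to 9 constructs for the 17 constructs with at least 20 promoter sites, with the quartiles at promoter sites as a band. The dashed line is the median, 48.3%, over the 300 bp windows of genes with no peak within 1 kb. Promoter medians lay above the medians of other sites in all 17, with the widest gap in TEAD1-HA and the narrowest in CDX2-HA.

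The genes reached differed from those not reached in the same direction. The 8412 genes with no peak of any construct within 1 kb of a start had a median GC content of 48.3% in their promoter window. The genes of each construct lay 11.7 ± 2.65 percentage points above this (mean and SD, n = 17), above 0 in 17 of 17 and between 9.33 and 19 points (two-sided permutation test of signs, p = 4.00e-05, adjusted p = 9.33e-05). The reference genes are the same for all constructs, and having no peak of any construct chose them. Over all protein-coding genes the median was 55.7%, and the medians of the constructs' genes ran from 57.7% for SOX2-HA to 67.3% for TOX3-HA. Without the co-expression list the difference was 11.8 points, and without olfactory and vomeronasal receptor genes in the reference, a comparison added after the data were seen, it was 10.0 points. CpG-rich windows, with at least 55% GC and an observed to expected CpG ratio of at least 0.65, were found at 53.5% of genes with a promoter site, 9.06% of genes with no peak and 36.0% of all genes. In the other direction, 89.5% of CpG-rich genes and 43.6% of the rest had a promoter site. The ratio of these shares was 5.36 for TOX3-HA, 3.79 for TEAD1-HA and 2.88 for RHOX11-HA, and it was 1.42 for SOX2-HA and 1.29 for SOX15-HA. CDX2-HA sites were AT-rich themselves, and the windows of its genes had a median GC content of 58.3%. A window lies at 1 start per gene, which need not be the start near the site, and 59.6% of the CDX2-HA promoter peaks lay in introns.

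Genes of basic cell metabolism were reached more often than genes at large. Promoter sites lay at 75 of 83 cytosolic ribosomal protein genes (90.4%), 74 of 77 mitochondrial ribosomal protein genes (96.1%), 36 of 37 aminoacyl-tRNA synthetase genes (97.3%), 33 of 39 proteasome genes (84.6%), 57 of 61 spliceosome and SR protein genes (93.4%) and 33 of 36 genes of replication origins and forks (91.7%), against 60.1% of all genes. BHLHB8-HA, present at 46.7% of all genes, was at 88.3% of the mitochondrial ribosomal genes and 91.9% of the tRNA synthetase genes. RHOX11-HA, at 11% of all genes, was at 45.8% of the cytosolic and 39.0% of the mitochondrial ribosomal genes, 43.6% of the proteasome genes and 29.8% of the nuclear genes of the respiratory chain. TEAD1-HA, at 32.0% of all genes, was at 19.3% of the cytosolic ribosomal, 23.1% of the proteasome and 13.9% of the replication genes. RHOX11-HA was thus above its background share and TEAD1-HA below its own in these classes. In others both were above, with RHOX11-HA at 31.1% and TEAD1-HA at 45.9% of spliceosome genes and at 27.9% and 47.1% of genes of translation factors. The share of CpG-rich windows was 50.6% among cytosolic ribosomal and 58.4% among mitochondrial ribosomal genes, and what part base composition has in these counts was not tested. Genes with many constructs over their sites in these classes were Mrpl11 (8 constructs), Mrpl21 (7), Ndufb3, which encodes a subunit of complex I (9), Rpl10a and Rpl13a (6 each), the proteasome gene Psmd11 (5), Mcm7, which encodes a subunit of the replicative helicase (6), the cap-binding factor gene Eif4e (8) and Eef2, the gene of the elongation factor that moves the ribosome (7).

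Replication-dependent histone genes, whose RNAs end in a stem-loop in place of a poly(A) tail, showed a pattern of their own. Of 66, 53 (80.3%) had a promoter site although 9.09% had a CpG-rich window. BHLHB8-HA was at 51 of them (77.3%), DLX6-HA at 14 (21.2%, background 8.02%) and DUXBL-HA at 12 (18.2%, background 4.25%), while TEAD1-HA was at 2 (3.03%) and ZFP319-HA at none. Hist1h3e had 7 constructs and Hist1h3f had 5. The authors kept only reads that aligned to a single place, and how this affected near-identical histone copies was not tested. Neighbouring histone genes can share a site, as Hist2h2ab and Hist2h2ac did, and such a site counts for both. The assignment to single histone genes is thus uncertain.

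Genes of developmental regulators were reached by TEAD1-HA more often than genes at large. It was at 48 of 82 homeobox genes outside the Hox clusters (58.5%), 35 of 63 Sox and Fox genes (55.6%) and 19 of 39 Hox genes (48.7%), against 32.0% of all genes. BHLHB8-HA was at 25.6%, 27.0% and 35.9% of these classes, below its 46.7% of all genes, and RHOX11-HA was at 0, 1 and 0 genes. CDX2-HA, at 2.52% of all genes, was at 9 of 39 Hox genes (23.1%) and at none of the 82 other homeobox genes. Those 9 genes were reached through 13 sites in all 4 clusters, among them Hoxa3, Hoxa4, Hoxa7, Hoxb6, Hoxb8, Hoxc5, Hoxc6, Hoxd4 and Hoxd8, and 10 of the 13 peaks held TTTATGG or TTTATTG. ZFP319-HA was at 10 Hox genes (25.6%, background 6.53%). Dlx1 had 5 constructs over 2 sites, Meis1, which encodes a cofactor of Hox proteins, had 4 and Foxp1 had 7.

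Signalling classes followed other constructs. The classes reached in full were those of the Hippo pathway and of the MYC and MAX network. All 26 Hippo pathway and target genes had a promoter site, and TEAD1-HA was at 20 of them (76.9%, background 32.0%), including Wwtr1, which encodes the co-activator TAZ, Amotl2 and Vgll4. Ankrd1, a target of the pathway, had peaks of 4 other constructs but none of TEAD1-HA. EBF1-HA was at 8 of 26 Hippo genes (30.8%), 6 of 13 genes of the MYC and MAX network (46.2%) and 8 of 31 actin cytoskeleton genes (25.8%), against 6.18% of all genes. MAX-HA was at 1 of those 13 network genes, Max itself, and at 1 of 20 growth targets of MYC, 5.00% against 2.23% of all genes. HLF-HA was at 6 of 19 circadian genes (31.6%, background 1.14%), namely Per1, Per2, Nfil3, Tef, Nr1d2 and Ciart, and at Nr1d2 and Ciart the peak held the D-box printed above. TOX3-HA was at 6 of 24 early response genes (25%, background 2.29%), including Klf10 and Fosl2. RHOX11-HA was at 0 of the 19 circadian genes.

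Genes of fibroblast matrix and adhesion were close to the background, with 27 of 44 collagen genes (61.4%), 28 of 42 integrin and laminin genes (66.7%) and 24 of 45 genes of matrix proteases and their inhibitors (53.3%). Col3a1 had 8 constructs and Itgb5 had 7. SOX2-HA was at 7 of the 42 integrin and laminin genes (16.7%) and at 6 of 31 actin cytoskeleton genes (19.4%, background 5.02%). Genes of olfactory and vomeronasal receptors, the protocadherin cluster, defensins and the Rhox family were seldom reached. Promoter sites lay at 100 of 1092 olfactory receptor genes (9.16%), 12 of 327 vomeronasal receptor genes (3.67%), 5 of 57 protocadherin cluster genes (8.77%), 4 of 64 defensin genes (6.25%) and 1 of 34 Rhox genes (2.94%), Rhox2h, which held ZFP319-HA and not RHOX11-HA. Keratin genes lay above these but below the 60.1% of all genes, with 48 of 110 reached (43.6%). BHLHB8-HA was at 42 of the 110 (38.2%, background 46.7%). The constructs at most olfactory receptor genes were BHLHB8-HA (54 genes, 4.95%, background 46.7%), DUXBL-HA (20, 1.83%, background 4.25%) and CDX2-HA (12, 1.10%, background 2.52%). Each was thus below its background share. The authors kept only reads that aligned to a single place, and how this affected families of similar genes was not tested.

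**Figure D3:**
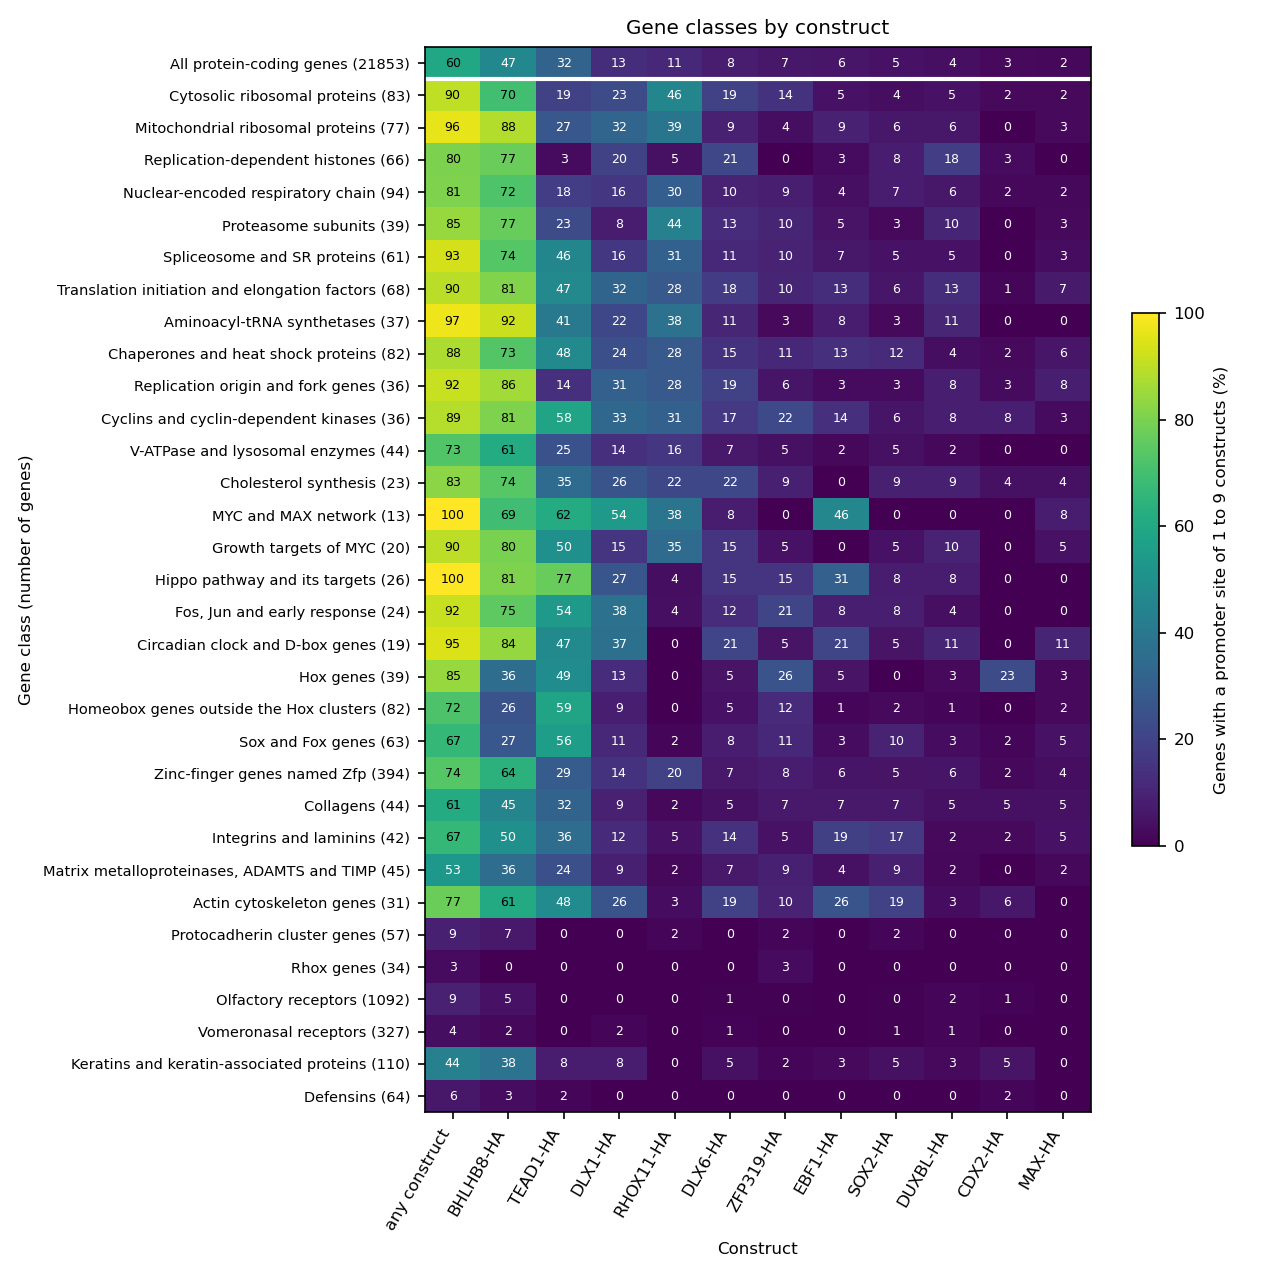
Each cell gives the percentage of the genes of a class with a promoter site of 1 to 9 constructs, for any construct and for 11 single constructs, with all 21853 protein-coding genes in the top row. RHOX11-HA stood at 45.8% of cytosolic ribosomal protein genes against 11% of all genes, TEAD1-HA at 58.5% of homeobox genes outside the Hox clusters against 32.0%, and CDX2-HA at 23.1% of Hox genes against 2.52%.

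Whether promoter peaks held the factor's own sequence differed from construct to construct. For 14 constructs with a known consensus, the share of peaks that held it differed between promoter and other sites by -1.62 ± 7.70 percentage points (mean and SD, n = 14, 6 above 0 and 8 below, two-sided permutation test of signs, p = 0.449, adjusted p = 0.523). Without the co-expression list it was -1.85 points. Single constructs differed in both directions. BHLHB8-HA peaks held CAGCTG or CATATG in 28.3% at promoters and 46.0% at other sites, with 14.9% and 15.5% in peak-free windows of the same GC content. FOXA1-HA peaks held TGTTTAC or TATTTAC in 49.3% and 37.6% (windows 3.56% and 5.53%), and EBF1-HA peaks held TCCCNNGGG in 40.5% and 32.5% (windows 5.73% and 4.48%). CDX2-HA with TTTATGG or TTTATTG (47.8% and 45.4%, windows 11.1% and 11.4%) and SOX2-HA with CATTGT or CTTTGT (51.9% and 54.4%, windows 25% and 27.7%) lay within 3 percentage points between promoters and other sites. The E-box CACGTG of MAX-HA was in 4.18% of its promoter peaks (windows 2.59%) and the D-box TTACGTAA or TTATGTAA of HLF-HA in 12.7% (windows 0.547%). DUXBL-HA peaks held AATCNAATC in 10.5% at promoters and 19% at other sites (windows 0.262% and 0.560%). DLX1-HA peaks held TAATTA or TAATTG in 8.10% at promoters, near the 7.02% of windows, and in 20.0% at other sites (windows 12.1%). TEAD1-HA peaks held CATTCC in 3.42% at promoters, below the 4.80% of windows of the same GC content, and in 5.32% at other sites, below 9.78%.

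The AP-1 sequence is read by the Fos and Jun proteins, a family to which none of the expressed factors belongs. Its share was lower at promoter than at other sites in every construct compared, by differing amounts. TGACTCA or TGAGTCA was found in 4.47% of all promoter windows, which are 300 bp long. In the central 200 bp of peaks, it was in 7.22% of DLX1-HA promoter peaks and 31.0% of its other peaks. These shares were 11.4% and 26.7% for FOXA1-HA, 16.6% and 29.4% for SOX2-HA and 22.4% and 27.7% for SOX15-HA. In TEAD1-HA it was in 0.891% and 1.85%. The difference between promoter and other sites was -10.5 ± 7.47 percentage points (mean and SD, n = 17), below 0 in 17 of 17 and between -23.8 and -0.961 points (two-sided permutation test of signs, p = 4.00e-05, adjusted p = 9.33e-05). Without the co-expression list it was -11 points, as an excess over windows of the same GC content it was -10.6 points, and at sites of a single construct it was -3.74 points (same permutation test, adjusted p = 0.00961).

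**Figure D4:**
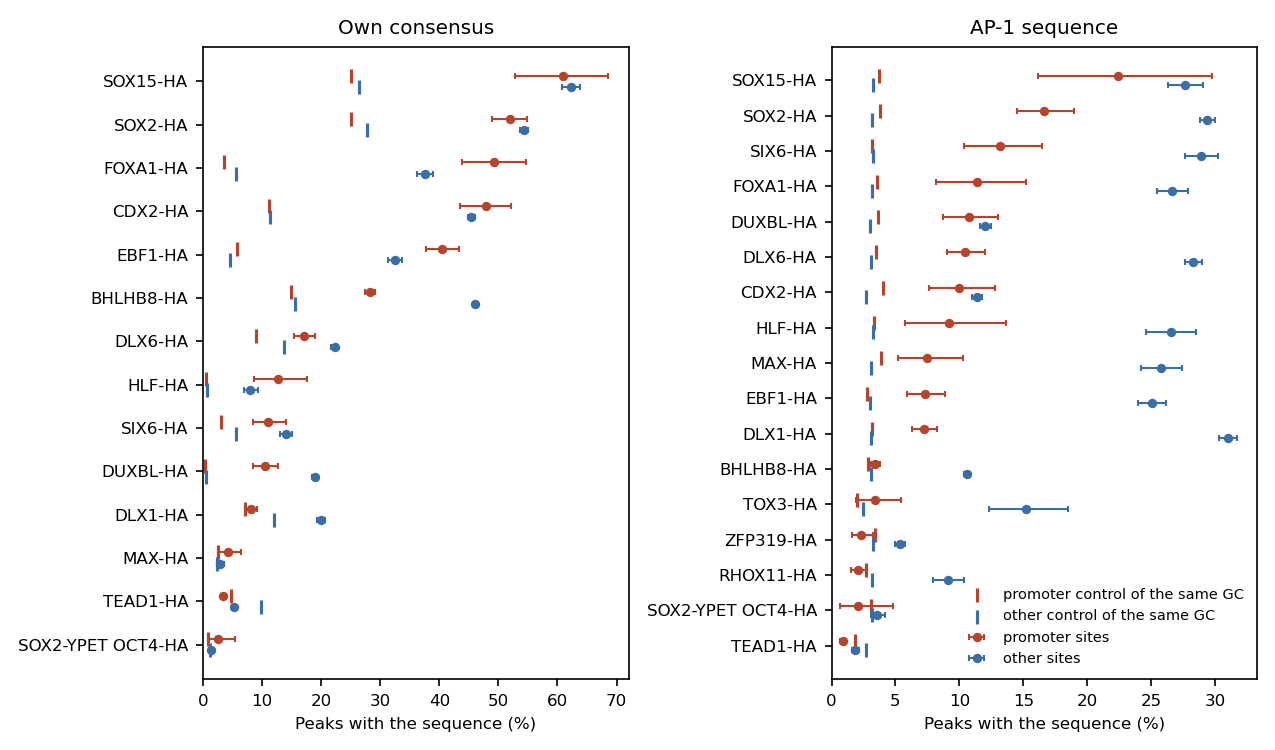
The panels plot the percentage of peaks whose central 200 bp held the factor's own consensus (left, 14 constructs) or the AP-1 sequence (right, 17 constructs), at promoter and at other sites, with 95% exact intervals and the share in peak-free windows of the same GC content as ticks. The AP-1 points of promoter sites lay to the left of those of other sites in all 17 constructs, while the own consensus went either way.

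Sequences of general promoter factors were counted in the promoter windows of the genes reached, beside other genes weighted to the same GC content. These windows lie at 1 start per gene, which need not be the start near the site. Over genes with any promoter site, the YY1 sequence was 2.88 times as frequent as in the other genes (4.18% of windows), the ZNF143 sequence 3.08 times (0.639%), the ETS sequence 2.26 times (15.8%) and the NRF1 sequence GCATGCGC 1.91 times (4.85%, and 3.76% of all promoter windows). The TATA sequence TATAAA, in 12.5% of all promoter windows, was at 0.955 times (8.12%). RHOX11-HA genes had the ZNF143 sequence in 1.78% of windows (5.17 times), the ETS sequence in 27.4% (2.28 times), the YY1 sequence in 6.85% (2.27 times) and the ZBTB33 sequence CTCGCGAG in 2.95% (2.25 times, and 1.23% of all promoter windows). For BHLHB8-HA genes the ratios were 2.14, 2.28, 2.55 and 1.90 in the same order. BHLHB8-HA was present at 81.7% of the RHOX11-HA promoter sites, against 66.1% of all promoter sites. The ETS sequence lay in the central 200 bp of 24.9% of the RHOX11-HA promoter peaks themselves, as in the stretch at Zfp446 printed above. TEAD1-HA genes stayed between 0.915 and 1.36 times for every sequence counted. The SP/KLF sequence was in 64.5% of TEAD1-HA and 74.7% of TOX3-HA promoter peaks, where the GC content is high, and in 2.55% of CDX2-HA promoter peaks. TOX3-HA genes had the NFY sequence CCAAT in 49.3% of windows (1.55 times, and 38.7% of all promoter windows). These ratios carry no test.

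Peaks were not placed alike around the start. TEAD1-HA peaks had their centre a median of 114 bp downstream of the nearest start, with 76.3% downstream and quartiles of 4 and 239 bp, and BHLHB8-HA peaks a median of 75 bp downstream. RHOX11-HA peaks were the most tightly placed, with a median of -20 bp and quartiles of -98 and 44 bp. DLX6-HA (median -112 bp), SOX2-HA (-137 bp) and CDX2-HA (-221 bp) lay upstream, and CDX2-HA quartiles of -666 and 538 bp show a wide scatter with a dip at the start. Over 17 constructs the median offset was -30.8 ± 99.0 bp (mean and SD), 4 above 0 and 13 below (two-sided permutation test of signs, p = 0.222, adjusted p = 0.310). Without the co-expression list, which had a median of 205 bp, it was -45.3 bp over 16 constructs (same permutation test, adjusted p = 0.0687).

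**Figure D5:**
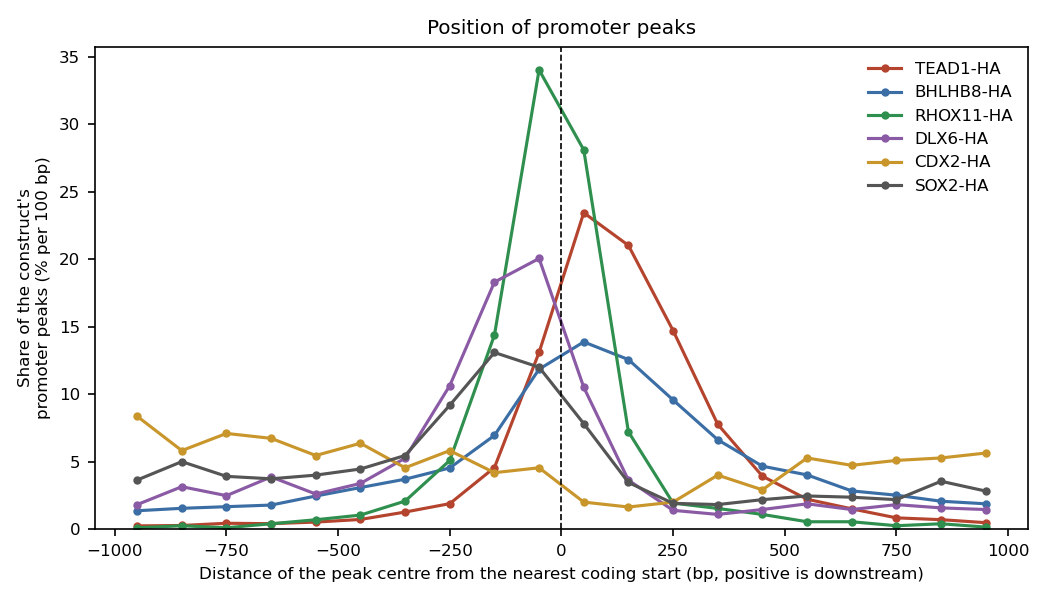
Lines give the percentage of a construct's promoter peaks in each 100 bp of distance from the nearest protein-coding start, with positive values downstream. RHOX11-HA, with a median of -20 bp, peaked at the start, TEAD1-HA (114 bp) and BHLHB8-HA (75 bp) lay downstream, DLX6-HA (-112 bp) and SOX2-HA (-137 bp) upstream, and CDX2-HA was spread across the whole range.

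The annotation around the midpoints did not always follow these offsets. Of all promoter sites, 24.1% had their midpoint outside protein-coding transcripts, 24.4% in a 5′ untranslated exon, 14.6% in a coding exon, 36.5% in an intron and 0.421% in a 3′ untranslated exon. TEAD1-HA sites were in 5′ untranslated exons in 39.5% and coding exons in 23.3%. RHOX11-HA sites were outside transcripts in 41.3% and in 5′ untranslated exons in 38.1%, and DLX6-HA sites were outside in 52.6%. CDX2-HA sites were in introns in 59.6% and outside transcripts in 34.9%, although only 40% of its peaks lay downstream of the nearest start. Divergent genes, whose start lies within 1000 bp of that of a gene on the other strand running away from it, made up 26.6% of RHOX11-HA genes (95% exact interval 24.9 to 28.4), 14.8% of BHLHB8-HA and DLX1-HA genes, 10.7% of TEAD1-HA genes and 7.83% of SOX2-HA genes. They made up 8.59% of all genes and 1.99% of genes with no peak. A site between such genes counts for both, which raises their share.

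Merged promoter sites had a median width of 489 bp (143 to 3186 bp) against 304 bp at other sites. For a construct's own peaks the difference was 20.4 ± 61.6 bp (mean and SD, n = 17, 10 above 0 and 7 below, two-sided permutation test of signs, p = 0.215, adjusted p = 0.310), and it ran from 507 against 339 bp in BHLHB8-HA to 254 against 302 bp in DLX6-HA. Without the co-expression list it was 21.25 bp. At sites of a single construct the difference was 22.4 bp over 16 constructs and passed the same permutation test (adjusted p = 0.00961).

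The widest peaks that single constructs held alone marked genes of many kinds. The widest lay at Sorbs3, which encodes the focal adhesion protein vinexin, for BHLHB8-HA (1946 bp, chr14:70203241-70205186), at Insm2 for TEAD1-HA (1430 bp, GC content 73.5%), at the mesenchymal homeobox gene Prrx1 for ZFP319-HA (1244 bp), at the ubiquitin ligase gene Cop1 for CDX2-HA (877 bp, GC content 36%) and at Gsk3a, which encodes a kinase of glycogen and Wnt signalling, for RHOX11-HA (735 bp). For EBF1-HA it lay at Atf5 beside Nup62 and Il4i1 (697 bp), for DLX1-HA at Rps25 beside Trappc4 (673 bp), for MAX-HA at Igf2bp2 (653 bp) and for SOX2-HA at Klhdc10 (552 bp). TOX3-HA had Mex3c (528 bp), DLX6-HA Magi3 (527 bp), HLF-HA Ndufc2 (369 bp) and FOXA1-HA the chemokine receptor gene Ackr2 (363 bp).

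Several constructs had promoter sites at the gene of their own factor. SOX15-HA alone held a site at Sox15 (660 bp, 107 bp of them in a coding exon), CDX2-HA had a peak at Cdx2 that lay wholly in a coding exon (273 bp), BRACHYURY-HA had a peak at T (183 bp, 77 bp coding) and SIX6-HA a peak of 1492 bp that covered 493 bp of the Six6 coding exons. The SOX2-YPET OCT4-HA list alone held sites at Pou5f1, which encodes OCT4 (1090 bp, 316 bp coding), and at Sox2 (784 bp, all coding). The cells also carry these coding sequences as transgenes, and which copy the reads came from was not tested. At Max the site of 619 bp held MAX-HA with EBF1-HA, FOXA1-HA and RHOX11-HA, and at Tead1 the site of 923 bp held TEAD1-HA with BHLHB8-HA and ZFP319-HA. No construct of DLX1, EBF1, HLF, TOX3, PRR3 or ZFP319 had a promoter site at its own gene, although other constructs did, such as TEAD1-HA alone at Hlf and Tox3.

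The 7 constructs with fewest promoter sites were described only. THAP4-HA, a zinc-finger protein with a THAP domain, had 9 among 56 sites (16.1%, 95% exact interval 7.62 to 28.3), at Thap4 beside Atg4b, Zfp672 beside Sh3bp5l, Cenpo beside Ptrhd1, Daxx, Ndc80, Mettl4, Knstrn, Zfp37 and Irgq. Ndc80, Knstrn and Cenpo encode proteins of the kinetochore. The SP/KLF sequence was in the central 200 bp of 5 of the 9 peaks, the YY1 sequence in 4 and the NFY sequence in 3. Of all promoter windows, which are longer at 300 bp, 44.8%, 3.02% and 38.7% held them. BRACHYURY-HA had 17 of 708 sites (2.40%), of which it held 3 alone, at T, Gm8165 and Gm8978, and shared the rest, such as those at Runx1, Cdk15 and Tuba1b. FOXA1_SW-HA had 7 sites and FOXA1_RR-HA had 4, all held with other constructs, and both mutants were at Abcb1a within the stretch of chromosome 5 given above. The wild-type FOXA1-HA had 324 in replicate 1 and 62 in replicate 2. NANOG-HA had 7 of 383 sites (1.83%) and OCT4-HA 7 of 116 (6.03%), with AW822073 in both. PRR3-HA had 0 promoter sites of 1 to 9 constructs. It had peaks near starts at sites that the rule leaves out, such as those of all 24 constructs at Rps2 and 4931408C20Rik. Sites of 10 or more constructs made up most of the sites of THAP4-HA, NANOG-HA, OCT4-HA and PRR3-HA, and these cannot be promoter sites here. Only 7 of the 62 PRR3-HA sites had 1 to 9 constructs, so the rule largely fixed its 0. THAP4-HA had 7 other sites, NANOG-HA 146 and OCT4-HA 28, so that their shares of all sites are lowered by the rule.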

How the data were processed

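Anti-HA ChIP-seq peaks of 28 samples were analysed, with constructs and replicates as the labels name them. According to the submitters' processing notes and the methods, the authors aligned reads to mm10 with STAR 2.5.3a, removed duplicates with Picard, called peaks per sample with MACS2 2.1.1.20160309 and dropped those touching a peak of the input or a blacklisted region (deepTools 2.4.2 is also named). The deposited files hold positions in bp and no other value, that is, no score, fold or read count for a peak. The input sample was not analysed here.

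Duplicate lists were merged per construct, and touching peaks were merged into sites. Protein-coding transcript starts came from GENCODE vM21 and sequence from RefSeq GRCm38.p6, and printed coordinates count from 1. Members, gene classes, consensus sequences and tests were chosen with earlier results of these data known. Genes named are those at the widest sites with 9 and 10 constructs, at each construct's widest peak held alone, with the most constructs in each gene class or over all sites, and those that encode the factors. Genes at sites of constructs with fewer than 20 promoter sites and members of a class held by the construct under discussion were named after their values were seen, and so were printed sequences, by width of the peak.

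Tests take 1 value per construct with at least 20 sites of each kind needed (a difference within the construct, a difference from the genes not reached, or a median offset) and flip the signs of these values over constructs. Recovery between duplicates used all 4 duplicated constructs. All sign patterns were enumerated up to 16 constructs, and 100000 were drawn for 17. The p-values were adjusted over 7 tests by the Benjamini-Hochberg method, with a threshold of 0.05. Control windows for other sites lay 5 kb from the site midpoint and touched no peak. Those for promoter sites were the 200 bp around the starts of genes with no peak within 1 kb. Having no peak of any construct thus chose the latter. Both kinds were weighted to the peaks' GC content in classes of 10 bases. Log2 odds ratios had 0.5 added to each cell. Intervals are 95% exact (Clopper-Pearson). The code was checked on simulated data. Alternatives changed the distance, transcripts, chromosomes, peak width, merging gap, constructs and lists. Python 3.11.15, NumPy 2.4.6, SciPy 1.17.1 and Matplotlib 3.10.9 were used. A few items are not reported here.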

Additional observations from a re-analysis of the deposited data

How the results depend on the processing

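Of 216 alternative values over 10 results, 200 neither changed sign, nor crossed the threshold, nor moved a count by over 1.5 times or a share by more than its interval. The GC difference between promoter and other sites ran from 6.39 to 12.6 points over 23 alternatives, that between genes reached and not reached from 9.93 to 12 points, and the AP-1 difference from -13.5 to -3.74 points, with an adjusted p of at most 0.00961. These ranges include leaving out each of the 8 duplicate lists, which gave 9.54 to 10.3, 10.7 to 12 and -10.7 to -10.3 points, and, added after seeing the data, leaving out BHLHB8-HA or the stretch of chromosome 5. The own consensus difference turned to 0.0651 points as an excess over windows of the same GC content (permutation test, adjusted p = 0.973). The width difference passed the test at sites of 1 construct only (22.4 bp). The difference in recovery between duplicates turned to -2.89 points without BHLHB8-HA, and without 1 list at a time it ran from -2.83 to 8.04 points, negative without BHLHB8-HA replicate 1 or 2, which leaves that construct out of the test. With 1 construct only, there were 9920 sites at 8163 genes. The share of promoter sites with TEAD1-HA, 38.3%, was 45.5% within 500 bp, 30.9% within 2 kb, 40.3% with basic transcripts, 43.9% with peaks of at least 300 bp, 40.2% with peaks within 100 bp merged, 27.7% with 1 construct only and 48.8% without BHLHB8-HA, and ran from 38.3% to 42.4% without 1 list. The cause of these shifts was not tested, except where fewer sites or constructs enter by construction.

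No paired analysis was possible because no test compares the replicates of 1 construct with those of another, so that replicate numbers pair nothing. The sign tests use 1 value per construct. Depth is unknown, and the absence of a site does not show the absence of binding.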
